A study of Rattus norvegicus with 6 samples.

Results

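Solute carriers are the membrane proteins that move ions, sugars, amino acids, nucleotides, vitamins and metals across cell and organelle membranes. The transcripts described here are those of genes named Slc, a family number, the letter a and a member number. They were chosen by their counts: a gene is a member where at least 3 of 6 libraries held 10 or more counts. Of 32883 genes in the table, 333 carried such a name, 189 were members, 77 had some count without being members, and 67 were at 0 in every library.

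The RNA came from wild-type GH4C1 cells, an established line of rat somatolactotrophs, the pituitary cells that make growth hormone and prolactin, so all values describe a single cell line. Every library was made from cells treated with psoralen, which fixes RNA strands that are paired with each other, and the study sought the RNAs directly bound to the long noncoding RNA Neat1. RNA was pulled down with oligo pool A or with oligo pool B, with 3 libraries for each pool, called A1 to A3 and B1 to B3 here. The labels give neither the oligo sequences nor where they bind, and they do not say whether a pool is a control. They also do not say whether the libraries came from separate cultures, so p-values measure the spread between libraries, which may be technical. No input RNA and no uncrosslinked cells were analysed here, so how much of a transcript the cells held and how well it was recovered cannot be told apart. In a bulk culture, fewer cells with a transcript and less RNA per cell cannot be told apart either.

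Transporters of the plasma membrane bring nutrients into the cell, export waste and, by coupling to sodium, chloride or bicarbonate, set the ion content and pH of the cytoplasm. The Slc25 family is the large set of inner mitochondrial membrane carriers that exchange phosphate, nucleotides, carboxylates, amino acids and cofactors between mitochondria and cytosol. The zinc transporters form families that work in opposite directions, since Slc30 proteins move zinc out of the cytoplasm, into organelles or out of the cell, and Slc39 proteins move it in. Secretory cells of the pituitary also rely on vesicular carriers, which load secretory granules and synaptic-like vesicles.

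Total counts were between 1826390 and 3685899 per library, a 2.02-fold range. The members together held 0.658%, 0.628% and 0.707% of the counts with pool A and 0.879%, 0.930% and 0.873% with pool B. They are shares of unscaled counts, in which members of high count weigh most, and do not give the change of a typical member. Levels are given as CPM (counts scaled to a common library size) on library sizes scaled by the TMM method, where 3 counts, the limit that a count of 0 allows, correspond to between 0.876 and 1.55 CPM depending on the library. These limits cover counting error only. No gene lengths came with the table, so levels were not compared between genes. The lactotroph product Prl had 752, 849 and 676 CPM with pool A and 434, 471 and 375 CPM with pool B, while Fshb, Tshb and Col3a1, markers of other pituitary and connective tissue cells, were at 0 in every library. Other markers had counts: Lhb, of gonadotrophs, had 39, 23 and 51 counts with pool A and 120, 73 and 119 with pool B, and its difference of -1.68 on the log2 scale passed the edgeR test used below. Cd68, of macrophages, had 23 to 45 counts and did not pass, while Pomc, Cga, Col1a1, Ptprc and Cdh5 had at most 18 counts in any library. The part of other cell types in the results was not tested.

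The threshold of the choice fell among genes of very few counts. Of the members, 152 had 10 counts in all 6 libraries and 7 had them in exactly 3. Among those 7, Slc46a3 had 26, 13 and 41 counts with pool A and 8, 1 and 3 with pool B, and Slc25a35 had 1, 13 and 1 with pool A and 15, 13 and 4 with pool B. Another 10 genes reached 10 counts in 2 libraries and are no members. Among these, the zinc importer gene Slc39a8 had 2, 14 and 15 counts with pool A and 0, 2 and 0 with pool B, and the glucose transporter gene Slc2a4 had 1, 0 and 6 with pool A and 12, 9 and 12 with pool B. Slc46a3, Slc16a7 and Slc7a4 became members through pool A alone and so had to differ between the pools. Slc16a7 and Slc7a4 were not tested because they did not pass edgeR's filter on low counts, which left 187 members for the comparison.

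Solute carrier transcripts were found at different levels with the 2 pools in both directions, and the shares were near those of all genes. In edgeR's quasi-likelihood test with Benjamini-Hochberg adjustment over all 11582 tested genes, 66 of 187 members passed an adjusted p of 0.05, or 35.3%, against 40.6% of all genes. Of these, 28 members (15.0%) were higher with pool A, against 18.6% of all genes, and 38 (20.3%) were higher with pool B, against 22.0% of all genes. With upper-quartile scaling in place of TMM the split was 33 higher in pool A and 28 in pool B. That scaling moved the median of all genes by 0.10 on the log2 scale, so differences of that size have no settled direction. Fold changes are given on the log2 scale and are positive where pool A was higher. The median log2 fold change of pool A over pool B was -0.00 for the members and 0.02 for all genes, and the median size of the change was 0.55 for members and 0.60 for all genes. Differences that passed and exceeded 4-fold were found for 8 members higher in pool A and 7 in pool B, while 7.82% of all genes did so in either direction. Slc46a3, which had to differ by the way it was chosen, is 1 of the 28 and 1 of the 8 and supports nothing. The CPM ranges of the pools lay apart for 84 members (44.9%), against 50.0% of all genes.

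How often a member differed followed its depth. Among members with a mean of 10 to 30 counts, 7 of 53 passed the threshold (13.2%), against 15.1% of all genes at that depth. From 30 to 100 counts the shares were 30.6% of 72 members and 34.4% of all genes, from 100 to 300 they were 58.7% of 46 members and 55.9% of all genes, and at 300 or more they were 66.7% of 15 members and 72.2% of all genes. A member of low count that did not pass is therefore not shown to be alike in both pools.

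**Figure D1:**
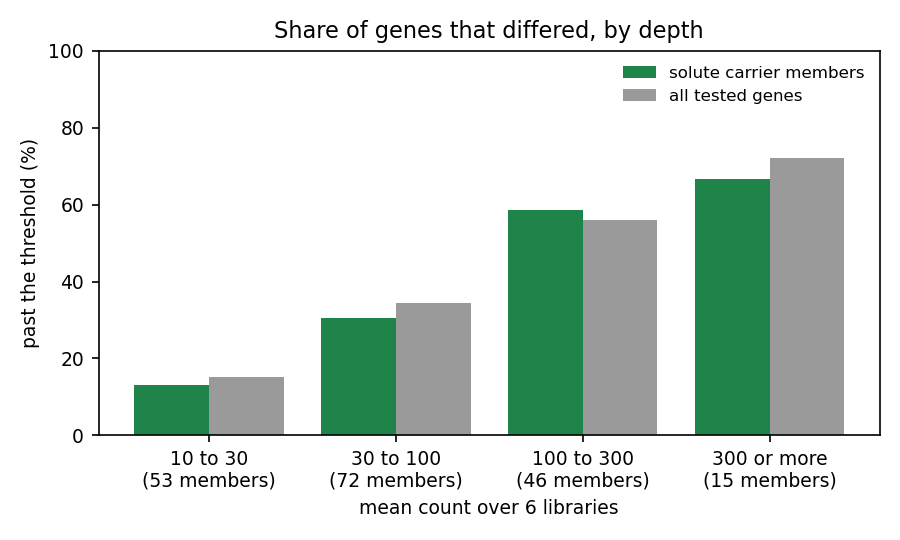
Bars give the percentage of genes past an adjusted p of 0.05 between the pools, for solute carrier members (green) and all tested genes (grey), by the mean count over 6 libraries. Both rise with depth, from 13.2% and 15.1% at 10 to 30 counts to 66.7% and 72.2% at 300 or more.

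The members were set in classes by the textbook location of each protein. Of 90 tested plasma membrane transporters, 12 were higher in pool A and 18 in pool B (33.3% in all). In the Slc25 family, 6 of 31 were higher in pool A and 6 in pool B (38.7%). Among the zinc families, 2 of 17 were higher in pool A and 4 in pool B (35.3%). All of these shares lay below the 40.6% of all genes, and the differences between the classes were not tested.

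As a description with no test between the classes, the size of the differences was set side by side. The median size of the log2 fold change was 0.72 for Slc25 and 0.41 for plasma membrane transporters, against 0.60 for all genes. It was between 0.64 and 0.75 for Slc25 and between 0.38 and 0.50 for plasma membrane transporters over the other scalings, filters, tests and left-out libraries tried. CPM ranges lay apart for 18 of 31 Slc25 members (58.1%) and for 35 of 90 plasma membrane members (38.9%), on either side of the 50.0% of all genes. Slc25 members also had fewer counts, with a median mean count of 50.7 against 68.3, and a larger median standard error, 0.33 against 0.28. The part of counts and error in these values was not tested. The zinc families had a median size of 0.36, and their members ranged from -3.52 to 1.64. The medians of the signed changes, -0.04 for the plasma membrane, -0.11 for Slc25 and 0.24 for zinc, were -0.17, -0.25 and 0.11 with total-count scaling and 0.06, -0.01 and 0.35 with upper-quartile scaling.

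**Figure D2:**
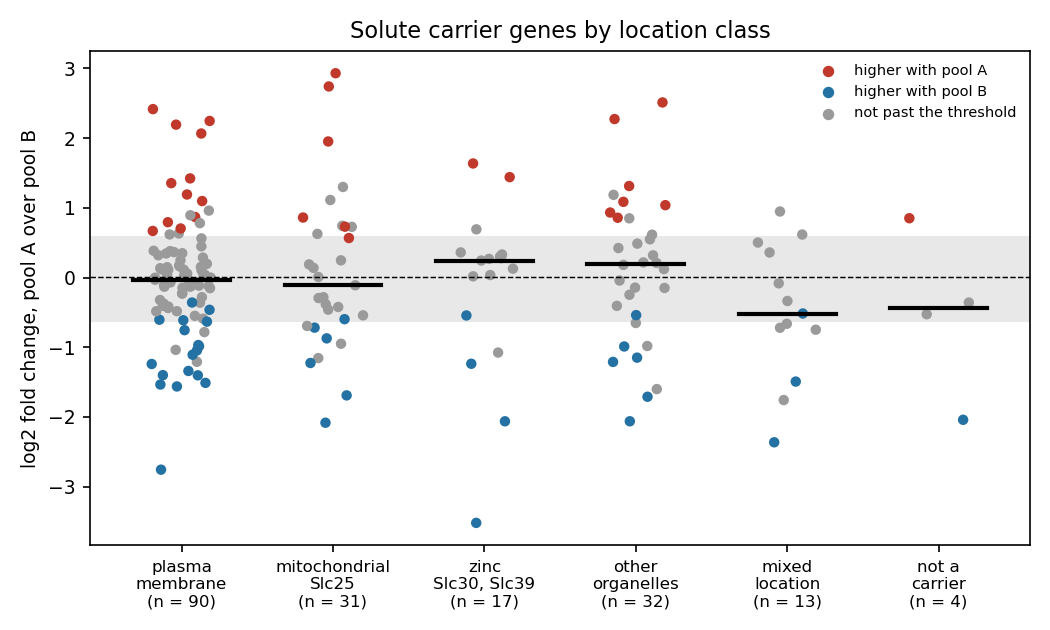
Each point is 1 tested member, placed by its log2 fold change (pool A over pool B) and grouped by location class, with red for members past the threshold and higher with pool A, blue for higher with pool B and grey for the rest. Black bars are class medians, the dashed line is the median of all genes and the grey band runs from their lower to their upper quartile; class medians lie between -0.52 and 0.24 while single members reach from -3.52 to 2.93.

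The largest difference of any member was in a zinc transporter. Slc30a4 (ENSRNOG00000000170) encodes a carrier that loads zinc into vesicles of secretory cells. It had 16.3, 17.2 and 8.11 CPM with pool A and 158, 178 and 139 CPM with pool B. Every library of pool B was far above every library of pool A, with means of 13.9 ± 5.03 and 158 ± 19.3 CPM (SD, n = 3). The log2 fold change was -3.52 ± 0.23 (SE), with an adjusted p of 7.08e-13 in edgeR's test. The next gene in the table, Bloc1s6, had a change of 0.32 that did not pass (adjusted p 0.702, edgeR).

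Slc30a1 encodes the zinc exporter of the plasma membrane. Its transcript had 9.92, 10.6 and 8.74 CPM with pool A and 33.4, 45.1 and 44.0 CPM with pool B, and the ranges lay well apart. The change was -2.06 ± 0.29 (adjusted p 1.49e-06, edgeR). Slc30a9, a mitochondrial zinc exporter, lay in the same direction with a much smaller difference, 47.9, 50.4 and 59.3 CPM against 81.5, 76.7 and 71.6 CPM. Its change of -0.54 ± 0.18 had an adjusted p of 0.0197 in edgeR's test. That call was lost with upper-quartile scaling (0.0583) and without A1 (0.0796), A2 (0.0797) or B1 (0.0702).

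The other Slc30 members did not pass. Slc30a3, a vesicular zinc carrier, changed by -1.08 ± 0.53 with an adjusted p of 0.110 in edgeR's test, and the libraries of pool A were all below those of pool B. Slc30a5, Slc30a6 and Slc30a7, carriers of the early secretory pathway, had changes of 0.24, 0.69 and 0.36 with overlapping ranges. In all, 3 of 7 Slc30 members passed, against 40.6% of all genes. Each of them was higher with pool B, as were 2546 of the 4700 genes that passed.

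Among the Slc39 importers, 2 of 10 were higher in pool A and 1 in pool B, against 18.6% and 22.0% of all genes. Slc39a9, a zinc transporter found at the Golgi and the cell surface, had 43.5, 77.8 and 68.3 CPM with pool A and 27.2, 19.7 and 22.0 CPM with pool B. The lowest pool A library was still above the highest of pool B. The change was 1.44 ± 0.25 (adjusted p 2.71e-05, edgeR). Slc39a11 had 17.2, 13.7 and 15.0 CPM with pool A and 2.95, 8.29 and 4.04 CPM with pool B, also without overlap, for a change of 1.64 ± 0.48 (adjusted p 0.00694, edgeR).

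Slc39a1, an importer of the plasma membrane, was the member in the opposite direction. It had 3.21, 5.30 and 6.55 CPM with pool A and 12.8, 9.33 and 13.2 CPM with pool B. Its change of -1.24 ± 0.50 had an adjusted p of 0.0495 in edgeR's test, and 8 of 14 alternatives lost the call, with adjusted p up to 0.173. Slc39a7, which releases zinc from the endoplasmic reticulum, was level across all libraries. It had 294, 251 and 259 CPM with pool A and 286, 242 and 256 CPM with pool B, a change of 0.04 ± 0.13 (adjusted p 0.864, edgeR). The remaining importers, Slc39a3, Slc39a5, Slc39a6, Slc39a10, Slc39a13 and Slc39a14, had changes between 0.02 and 0.33 and did not pass. Their libraries overlapped between the pools, and Slc39a13 had 6.55, 28.5 and 10.6 CPM in the 3 libraries of pool B. Its change of 0.27 became 1.04 without B2 (adjusted p 0.0542, edgeR) and -0.11 without B1.

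**Figure D3:**
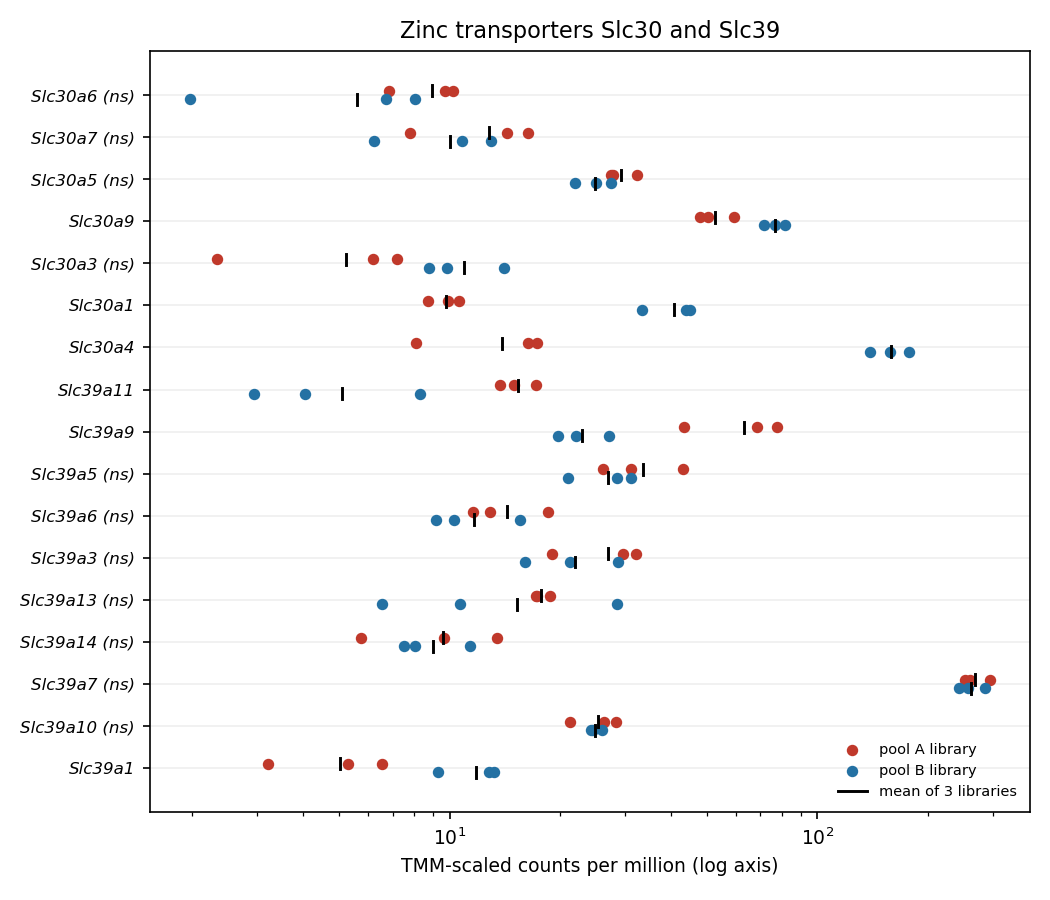
CPM on a log axis for the 17 zinc transporter members, with red points for the 3 libraries of pool A, blue for the 3 of pool B and black ticks for the means; ns marks members that did not pass the threshold. Slc30a4 and Slc30a1 show wide gaps with pool B higher, Slc39a9 and Slc39a11 show gaps with pool A higher, and Slc39a7 overlaps.

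Of the other zinc-handling genes listed beside the transporters, which include the metallothioneins, 6 were in the table and 2 could be tested. For these, Mt3 and Tmem163, edgeR, DESeq2 and limma-voom made 0 calls, and 0 had an unadjusted p under 0.05 in edgeR's test. Both had few counts, and 2 genes cannot be set against the 40.6% of all genes that passed.

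In the Slc25 family the largest differences were in carriers of phosphate and of adenine nucleotides. Slc25a3 (ENSRNOG00000008289) encodes the phosphate carrier that supplies mitochondrial ATP synthesis. Its transcript had 103, 121 and 114 CPM with pool A and 14.4, 18.1 and 12.1 CPM with pool B. The pool means, 112 ± 9.23 and 14.9 ± 3.04 CPM (SD, n = 3), were far apart against the spread of the libraries, with a log2 fold change of 2.93 ± 0.21 (adjusted p 8.93e-12, edgeR). In the RefSeq annotation the small nucleolar RNA gene Snora53 overlaps Slc25a3, so their reads may not be separable.

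The calcium-regulated carriers that exchange ATP-magnesium for phosphate gave opposite differences. Slc25a25 had 53.7, 49.5 and 47.4 CPM with pool A and 6.55, 5.70 and 9.91 CPM with pool B, a change of 2.74 ± 0.29 (adjusted p 1.2e-08, edgeR). Slc25a23 had 30.1, 26.5 and 25.9 CPM with pool A and 74.7, 88.6 and 104 CPM with pool B, a change of -1.69 ± 0.20 (adjusted p 1.15e-07, edgeR). Neither pair of ranges overlapped, which the rule that named these members required. The third carrier of this kind, Slc25a24, had between 3.30 and 9.05 CPM and a change of 0.74 ± 0.57 that did not pass (adjusted p 0.328, edgeR). This trio was put side by side after their values were seen.

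Slc25a42, which carries coenzyme A into mitochondria, was the Slc25 member furthest towards pool B. It had 21.0, 24.3 and 18.1 CPM with pool A and 86.4, 95.3 and 85.9 CPM with pool B. The libraries of each pool lay close together and the change was -2.08 ± 0.21 (adjusted p 4.08e-09, edgeR). The RefSeq annotation places Tmem161a over part of this gene, and the change of Tmem161a was -0.01 (adjusted p 0.967, edgeR).

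The group of amino acid and glutathione carriers had 8 tested members, of which Slc25a12, Slc25a39 and Slc25a44 were higher with pool A and Slc25a40 with pool B, against 18.6% and 22.0% of all genes. Slc25a44, which imports branched-chain amino acids, had 76.2, 108 and 91.4 CPM with pool A and 24.9, 15.5 and 29.4 CPM with pool B. The ranges lay apart and the change was 1.95 ± 0.23 (adjusted p 6.15e-08, edgeR). The row before it in the table, Pmf1, was also higher with pool A, at 2.15 (adjusted p 9.71e-08, edgeR). Slc25a12, an aspartate and glutamate exchanger, had 30.9, 28.3 and 49.9 CPM with pool A and 13.4, 18.7 and 28.3 CPM with pool B, so that the lowest library of pool A only just exceeded the highest of pool B. Its change of 0.86 ± 0.30 had an adjusted p of 0.0226 in edgeR's test and was lost with total-count scaling (0.0577) and without A3 (0.188), B1 (0.125) or B2 (0.0572).

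Slc25a39 and Slc25a40, both linked to mitochondrial glutathione import, differed in opposite directions. Slc25a39 had 341, 395 and 326 CPM with pool A and 229, 248 and 240 CPM with pool B, a change of 0.57 ± 0.13 (adjusted p 0.00100, edgeR). Slc25a40 had 11.4, 4.86 and 7.18 CPM with pool A and 16.7, 14.0 and 25.0 CPM with pool B, a change of -1.23 ± 0.41 (adjusted p 0.0183, edgeR). Ranges lay apart for both. The call of Slc25a40, which had few counts, was lost without A2 (0.0943), A3 (0.0503) or B3 (0.135). Slc25a39 was set beside it after its values were seen, as were the adenine nucleotide translocases and Slc25a1 below.

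Of 4 tested carboxylate carriers, 2 passed, against 40.6% of all genes. Both were higher with pool B, as were 2546 of the 4700 genes that passed. Slc25a11, the oxoglutarate and malate exchanger, had 13.1, 14.1 and 12.8 CPM with pool A and 19.0, 25.9 and 28.6 CPM with pool B, a change of -0.87 ± 0.32 (adjusted p 0.0304, edgeR). Slc25a1, the citrate carrier, had 39.7, 33.1 and 43.4 CPM with pool A and 54.4, 65.8 and 56.9 CPM with pool B, a change of -0.60 ± 0.21 (adjusted p 0.0231, edgeR). Both calls are weak although the ranges did not overlap. That of Slc25a11 was lost with upper-quartile scaling (0.0567) and without any library other than B1, with adjusted p between 0.0657 and 0.131. That of Slc25a1 was lost with upper-quartile scaling and without A2 or B2, with adjusted p up to 0.123. In RefSeq, Gp1ba overlaps Slc25a11 and lay in the opposite direction, at 0.92.

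The adenine nucleotide translocases exchange ATP for ADP across the inner membrane. Slc25a4 had 88.1, 72.5 and 94.5 CPM with pool A and 56.3, 52.3 and 45.5 CPM with pool B, without overlap, and a change of 0.73 ± 0.19 (adjusted p 0.00233, edgeR). Slc25a5 had between 23.1 and 36.2 CPM with pool A and between 28.5 and 53.4 CPM with pool B, and its change of -0.42 ± 0.27 did not pass (adjusted p 0.223, edgeR). As close paralogs, these transcripts may share reads under a counting scheme whose settings are not given in the sources used here.

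**Figure D4:**
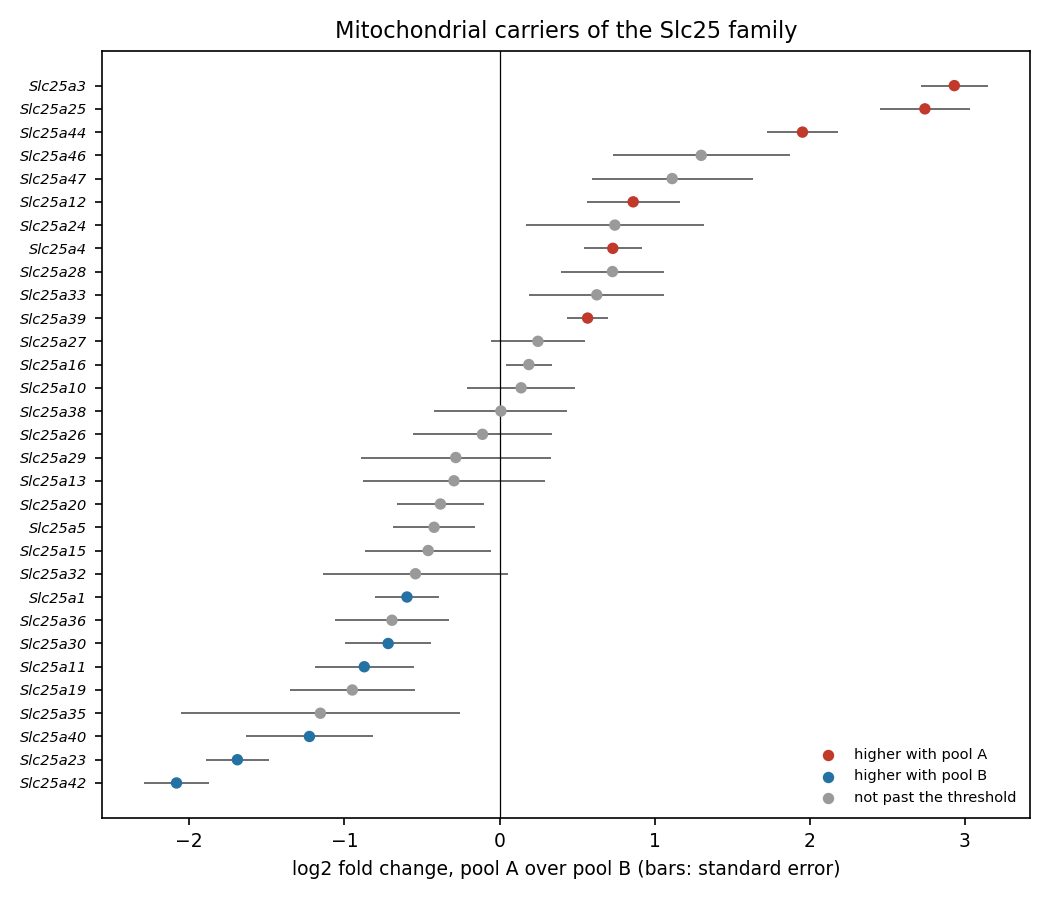
Log2 fold change (pool A over pool B) of each of the 31 tested Slc25 members, with bars for 1 standard error; red and blue mark members past the threshold in either direction and grey those that did not pass. Slc25a3, Slc25a25 and Slc25a44 lie at the pool A end and Slc25a42 and Slc25a23 at the pool B end, with most members between -1 and 1.

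Other mitochondrial transport genes outside the Slc names, fixed as a list with these data known, gave 2 of 10 tested higher in pool A and 5 in pool B, against 18.6% and 22.0% of all genes. Vdac3, a channel of the outer membrane, had 35.3, 35.4 and 31.2 CPM with pool A and 96.3, 87.6 and 121 CPM with pool B, a change of -1.58 ± 0.19 (adjusted p 1.3e-07, edgeR). Sfxn5, a sideroflexin of the inner membrane, was likewise higher with pool B, at -1.31 ± 0.18. Mcu, the pore of the mitochondrial calcium uniporter, was higher with pool A, at 0.97 ± 0.23 (adjusted p 0.00113, edgeR).

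At the plasma membrane, ion transporters gave the largest differences in both directions, and 4 of 28 were higher in pool A and 7 in pool B, near the 18.6% and 22.0% of all genes. Slc8a1 (ENSRNOG00000008479), the sodium-calcium exchanger that extrudes calcium from excitable cells, had 36.8, 36.2 and 33.4 CPM with pool A. With pool B it had 196, 262 and 262 CPM. The means of 35.5 ± 1.82 and 240 ± 38.0 CPM (SD, n = 3) gave a change of -2.76 ± 0.17 (adjusted p 2.58e-13, edgeR). Its paralogs Slc8a2 and Slc8a3, named here after their values were seen, overlapped between the pools and both had changes of -0.15.

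Transporters of bicarbonate, which regulate intracellular pH, went both ways. Slc4a10 had 191, 143 and 144 CPM with pool A and 38.0, 16.1 and 33.4 CPM with pool B, a change of 2.42 ± 0.22 (adjusted p 6.88e-10, edgeR) with no overlap. In the same family Slc4a7 was also higher with pool A (1.35 ± 0.24), whereas the anion exchanger Slc4a2 (-1.05 ± 0.22) and Slc4a8 (-0.99 ± 0.18) were higher with pool B. Slc4a3 had between 102 and 134 CPM over all 6 libraries and a change of 0.11 that did not pass. Apart from Slc4a10, these members were named after their values were seen.

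Of the 6 tested Slc26 anion exchangers, 1 was higher in pool A and 2 in pool B, against 18.6% and 22.0% of all genes. The remaining 3 did not pass. Slc26a1, a sulfate transporter, had 54.6, 46.4 and 56.5 CPM with pool A and 12.1, 9.33 and 11.4 CPM with pool B, a change of 2.25 ± 0.26 (adjusted p 6.69e-08, edgeR). It overlaps Idua in RefSeq, which had a change of 0.28 (adjusted p 0.261, edgeR). Slc26a6 had 13.7, 8.40 and 10.3 CPM with pool A and 23.2, 39.9 and 31.2 CPM with pool B (-1.51 ± 0.32). Slc26a10 had 6.42, 6.63 and 9.67 CPM with pool A and a mean of 22.3 ± 7.01 CPM (SD, n = 3) with pool B (-1.53 ± 0.39). Slc26a1, Slc26a6 and Slc26a10 had ranges that did not overlap, which the rule that named them required. In the family, ranges lay apart for 4 of 6 members, against 50.0% of all genes.

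The group of sugar carriers and the related sodium-coupled Slc5 family, which also holds carriers of iodide and vitamins, had 8 tested members. Of these, Slc2a12 and the multivitamin transporter Slc5a6 passed, where 40.6% of all genes did. Both were higher with pool B, as were 2546 of the 4700 genes that passed. Slc5a6, named after its values were seen, had a change of -0.60 ± 0.23 (adjusted p 0.0355, edgeR), a call lost in 5 alternatives, among them those without A2, A3 or B3, with adjusted p up to 0.235. Slc2a12, a facilitative glucose transporter, had 5.25, 3.98 and 5.30 CPM with pool A and 15.4, 9.84 and 18.0 CPM with pool B, a change of -1.56 ± 0.47 (adjusted p 0.00852, edgeR). The ranges lay apart, and the call was lost without B3 (0.0550). The main glucose transporter of many cells, Slc2a1, which was looked at after its values were seen, had a change of 0.38 ± 0.24 that did not pass.

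Carriers of organic solutes were 5 of 30 higher in pool A and 5 in pool B, against 18.6% and 22.0% of all genes. Slc44a4, a choline transporter-like protein, had 24.2, 37.1 and 35.6 CPM with pool A and 6.88, 9.84 and 6.61 CPM with pool B. Its ranges lay apart and its change was 2.07 ± 0.34 (adjusted p 1.36e-05, edgeR). Among members named after their values were seen, the monocarboxylate transporter Slc16a1 was higher with pool A, at 60.1, 65.4 and 68.0 CPM against 38.6, 22.8 and 27.9 CPM (1.10 ± 0.22). Its relative Slc16a5 was higher with pool B, at 22.2, 15.0 and 24.3 CPM against 37.3, 43.5 and 53.2 CPM (-1.11 ± 0.26). Bsg, the chaperone that brings Slc16a1 to the cell surface, had between 311 and 403 CPM in all libraries and a change of -0.06 that did not pass.

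Amino acid carriers of the plasma membrane were 3 of 24 higher in pool A and 4 in pool B, against 18.6% and 22.0% of all genes. Slc3a1, the heavy subunit of a cystine transporter, had 28, 19 and 39 counts with pool A and 14, 0 and 3 with pool B. Its fitted change of 2.19 ± 0.71 (adjusted p 0.0144, edgeR) rests on these few counts and was lost without A3 (0.0685), B2 (0.0506) or B3 (0.0625). Without B1, the library of pool B with the most counts, it was 3.84. It overlaps Prepl in RefSeq, which had a change of 0.11.

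The heteromeric transporters of the Slc3 and Slc7 families, in which a heavy subunit carries a light catalytic subunit to the membrane, were compared after their values were seen. The heavy subunit Slc3a2 had 161, 156 and 181 CPM with pool A and 270, 318 and 255 CPM with pool B, a change of -0.75 ± 0.14 (adjusted p 7.14e-05, edgeR). The light subunit Slc7a5, which takes up large neutral amino acids, was also higher with pool B (-0.46 ± 0.15, adjusted p 0.0125 in edgeR's test, or 0.103 without A2). Slc7a6 was higher with pool A (0.87 ± 0.29, adjusted p 0.0168), with overlapping libraries and a call lost without any 1 of pool A replicates 1 and 3 and B2, with adjusted p up to 0.104. The light subunits Slc7a7, Slc7a8 and Slc7a11 had changes of 0.02, -0.44 and -0.00 and did not pass.

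Other amino acid carriers of high count are given as examples, while Slc1a4 (-0.32) and Slc6a6 (0.15), among others, did not pass. Slc7a1, the cationic amino acid transporter, had 163, 135 and 145 CPM with pool A and 99.5, 79.8 and 92.5 CPM with pool B, a change of 0.70 ± 0.16. Slc38a2, a sodium-coupled neutral amino acid transporter, had 209, 195 and 215 CPM with pool A and 301, 326 and 333 CPM with pool B, a change of -0.63 ± 0.13. For both, the libraries of the pools did not overlap. Slc1a5, a glutamine carrier, turned on 1 library: it had 425, 375 and 525 counts with pool A and 878, 213 and 249 with pool B. Its change was -0.12 ± 0.25 (adjusted p 0.745, edgeR), and without B1 it was 0.58 with an adjusted p of 0.0126. All of these carriers were named after their values were seen.

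Slc38a10 (ENSRNOG00000004604), an amino acid transporter also found inside cells and therefore placed with 13 members of mixed location, had the highest counts among the members with large differences. It had 287, 226 and 198 CPM with pool A and 1158, 1279 and 1224 CPM with pool B. The means were 237 ± 46.0 and 1220 ± 60.9 CPM (SD, n = 3), with a change of -2.36 ± 0.15 (adjusted p 3.02e-13, edgeR). Of the 8 Slc38 members, 3 passed, and of the 13 of mixed location, 3 passed, against 40.6% of all genes. All of these calls were higher with pool B, as were 2546 of the 4700 genes that passed. Slc38a1, 1 of the Slc38 calls and named after its values were seen, had a change of -0.36 (adjusted p 0.0377, edgeR) that was lost in 7 of 14 alternatives, 5 of them with a library left out, with adjusted p up to 0.172.

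**Figure D5:**
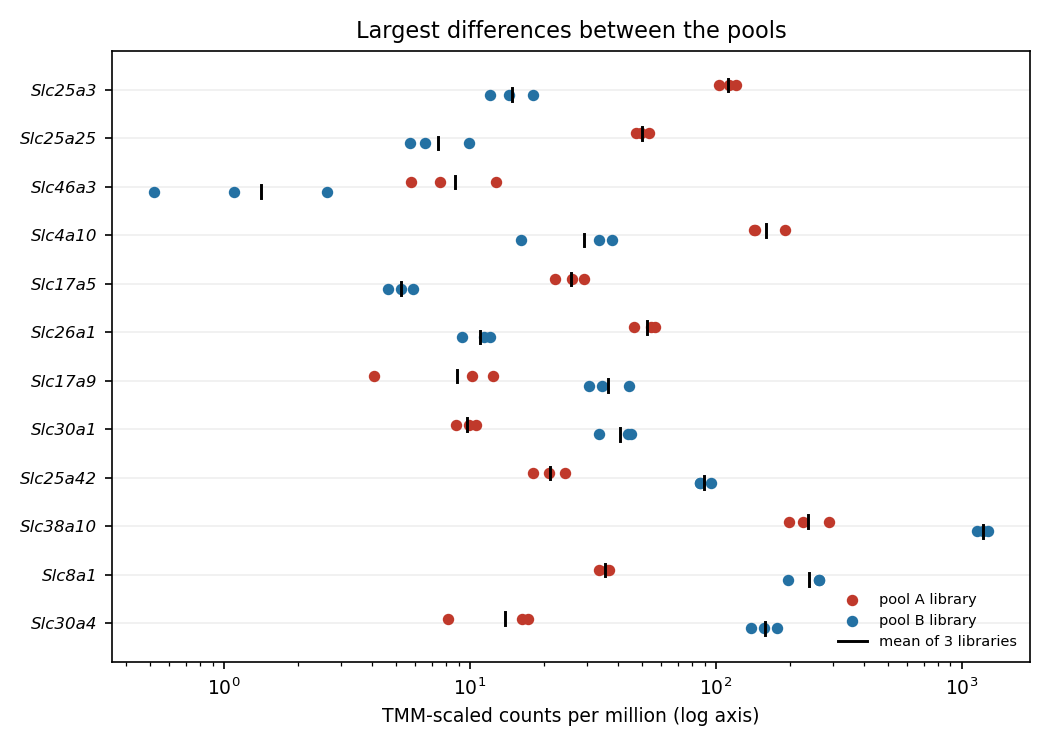
CPM on a log axis of the 6 members with the largest change towards each pool, with red points for the 3 libraries of pool A, blue for the 3 of pool B and black ticks for the means. The groups of points do not overlap for any of them, which the choice of these members required.

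Transporters of other organelles were 7 of 32 higher in pool A and 6 in pool B. Of the 18 vesicular, lysosomal and endosomal carriers, 5 were higher in pool A, among them Slc46a3, and 1 in pool B. Of the 13 carriers of the endoplasmic reticulum and Golgi, 2 were higher in pool A and 4 in pool B. These counts are small and were not tested against each other; the shares over all genes were 18.6% in the direction of pool A and 22.0% in that of pool B. Slc17a5, the lysosomal sialic acid exporter, had 26.0, 22.1 and 29.0 CPM with pool A and 5.24, 4.66 and 5.87 CPM with pool B, a change of 2.27 ± 0.37 (adjusted p 1.46e-05, edgeR). Slc18a1, which loads monoamines into vesicles, had 22.5, 30.9 and 30.9 CPM with pool A and 9.17, 18.7 and 12.5 CPM with pool B, a change of 1.09 ± 0.33. Neither overlapped between the pools, as the rule that named them required. The other Slc18 member, Slc18a2, named after its values were seen, lay in the opposite direction. Its change of -1.60 did not pass (adjusted p 0.0557, edgeR), but passed in 4 of 13 alternatives.

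The vesicular nucleotide transporter Slc17a9, which loads ATP into secretory vesicles, was the vesicular carrier that passed and was higher with pool B. It had 10.2, 12.4 and 4.06 CPM with pool A and 34.4, 30.6 and 44.4 CPM with pool B, a change of -2.06 ± 0.35 (adjusted p 2.1e-05, edgeR). It overlaps Gid8 in RefSeq, whose change was 0.06. The lysosomal carrier Slc46a3, which entered through pool A alone and so is described without a test, had 26, 13 and 41 counts with pool A and 8, 1 and 3 with pool B. Slc35a4, of the nucleotide sugar transporter family, had 27.4, 15.0 and 17.2 CPM against 7.53, 5.18 and 11.0 CPM, a change of 1.31 ± 0.40 (adjusted p 0.00959, edgeR) that was lost without A1 (0.106).

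The Slc37 family, which exchanges sugar phosphates for phosphate at internal membranes, had 3 of 4 members higher with pool B, as were 22.0% of all genes. Slc37a2 had 3.21, 5.30 and 5.30 CPM with pool A and 18.0, 14.5 and 12.5 CPM with pool B (-1.71 ± 0.47). Slc37a3 had 37.4, 33.6 and 32.4 CPM against 64.2, 73.0 and 92.5 CPM (-1.15 ± 0.21). Slc37a4, the glucose 6-phosphate carrier of the endoplasmic reticulum, had 13.1, 23.4 and 9.05 CPM against 35.0, 25.9 and 27.5 CPM, a change of -0.99 ± 0.33 (adjusted p 0.0172, edgeR). The call of Slc37a4 was lost without A1, A3 or B1, with adjusted p up to 0.108. Slc37a1 overlapped between the pools and did not pass. The family was singled out after its values were seen, as was Slc37a4.

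The peroxisomal member of the Slc25 family, Slc25a17, was counted with the organelle carriers. It had 33.0, 23.9 and 19.3 CPM with pool A and 56.3, 62.7 and 58.3 CPM with pool B. The libraries did not overlap and the change was -1.21 ± 0.23 (adjusted p 0.000130, edgeR).

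Another 4 members carry the name of a carrier without being one. Slc4a1ap, the adaptor protein kanadaptin, had 58.1, 79.6 and 88.9 CPM with pool A and 290, 298 and 342 CPM with pool B, a change of -2.04 ± 0.16 (adjusted p 3.79e-11, edgeR). The row before it in the table, AABR07063274.1, moved the same way by -1.65, and the row after it, Supt7l, had a change of 0.22. The scaffold proteins Slc9a3r1 and Slc9a3r2 anchor membrane transporters and did not pass, at -0.53 ± 0.22 (adjusted p 0.0567, edgeR) and -0.36 ± 0.53 (0.632). The call of Slc9a3r1 was gained with total-count scaling (0.0208) and without A1 (0.0392) or B3 (0.0438).

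Slc7a6os is named for lying opposite Slc7a6. It had 19.3, 25.6 and 26.5 CPM with pool A and 16.4, 9.33 and 13.2 CPM with pool B, a change of 0.85 ± 0.33 (adjusted p 0.0411, edgeR). The call was lost in 8 of 14 alternatives, with adjusted p up to 0.132. Its neighbours in the table were at 0.87 (Slc7a6) and 1.85 (Prmt7), and neither overlaps it in RefSeq. Of 186 members matched by name to RefSeq, 80 overlap another gene there, and since the strand setting of the counting is not given, reads of such genes may not be separable.

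The rows next to the 66 members that passed were also looked up, after the data were seen. Of 74 such rows that were tested, 17 passed in the same direction as the member and 10 in the opposite one, where the shares of all genes were 18.6% towards pool A and 22.0% towards pool B. The former included the row before Slc10a1 (Srsf5, -3.18) and the row after Slc29a1 (Hsp90ab1, 1.31). They also count the row after Slc46a3, a member that had to differ, and Slc7a6 and Slc7a6os as neighbours of each other. The latter included the row after Slc25a11 (Rnf167, 3.58) and the row before Slc37a4 (Hyou1, 2.05). Whether neighbouring transcripts share reads was not tested.

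Over all families, 43 had members and 29 had at least 1 that passed, among them Slc46, whose only member Slc46a3 had to differ. Of the 33 families with at least 2 members, 10 held calls in both directions, as in Slc4, Slc25, Slc26 and Slc7. These counts include members named after a carrier, and 40.6% of all genes passed. Among families with calls in 1 direction, all 3 Slc10 members were higher with pool B, and 2 of 3 Slc29 members were higher with pool A, against 22.0% and 18.6% of all genes. Of the Slc10 calls, that of Slc10a7 (-0.52, adjusted p 0.0495, edgeR) was lost in 12 alternatives and that of Slc10a1 (-0.97, 0.0407) in 7, and that of Slc10a3 (-1.34, 0.0120) without A2 (0.0638). Slc29a1, an equilibrative nucleoside transporter, had 66.5, 91.0 and 97.0 CPM with pool A and 34.4, 48.7 and 29.4 CPM with pool B (1.19 ± 0.22). Slc29a4 had a change of 0.67 ± 0.20 with overlapping libraries, lost without A3 or B3, with adjusted p up to 0.0912. These families were singled out after their values were seen.

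Partners of plasma membrane transporters, listed with these data known, gave 2 of 11 tested higher in pool A and 2 in pool B, against 18.6% and 22.0% of all genes. Nptn, a chaperone related to Bsg, had 49.9, 66.3 and 59.6 CPM with pool A and 21.9, 9.84 and 17.2 CPM with pool B (1.80 ± 0.26). Arl6ip1 was higher with pool B, at -1.18 ± 0.26 (adjusted p 0.000535, edgeR). For the 4 tested organic anion transporters of the Slco family, edgeR with TMM, DESeq2 and limma-voom made 0 calls. Among all genes, 40.6% passed edgeR's test. Of the 4, 1 had an unadjusted p under 0.05 in edgeR's test. This was Slco3a1, whose ranges lay apart and which passed with total-count scaling (adjusted p 0.0401, edgeR).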

How the data were processed

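Rat GH4C1 cells were crosslinked with psoralen, and RNA pulled down with oligo pool A or B was sequenced in strand-specific libraries, 3 per pool. The authors deposited whole-number counts per gene under Ensembl identifiers, made with STAR and featureCounts per the submitters' processing notes; versions, build, annotation and strand setting are not given in the sources used here. Library totals were between 1826390 and 3685899. The comparison used edgeR 4.0.16 under R 4.3.3 (TMM scaling, filter by group, quasi-likelihood test, two-sided), with Benjamini-Hochberg adjustment over 11582 genes and a threshold of 0.05. CPM use TMM-scaled library sizes, and standard errors were derived from the F statistic. The test was also run on simulated counts, with results that are not reported here.

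The members, location classes, gene lists and tests were chosen with earlier results of these data known. Named are members past the threshold with CPM ranges apart (the 6 largest changes each way, and the 4 largest each way in the plasma membrane, Slc25 and organelle classes), all zinc transporters, all non-carriers, and up to 3 per further list. Genes outside this rule are marked as chosen after their values were seen. Overlaps come from RefSeq (GRCr8). Same-numbered libraries of the 2 pools deviated from their pool means with correlations of 0.0409, -0.0195 and 0.0200, and were not treated as pairs. Alternatives were DESeq2 1.42.0 and limma 3.58.1 (voom), other scalings, filters and classes, a replicate block, a test against a 1.5-fold change, and leaving out each library. Some results are not reported here.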

Additional observations from a re-analysis of the deposited data

How the results depend on the processing

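Member calls were 28 higher in pool A and 38 in pool B. They became 29 and 36 with DESeq2 size factors, 25 and 45 with total counts, 33 and 28 with upper-quartile factors, 28 and 34 with the DESeq2 test, 28 and 39 with limma-voom, and 16 and 20 against a 1.5-fold change. Leaving out 1 library gave 22 to 28 and 26 to 34. With the replicate number as a block they were 26 and 33, and 59 of the 66 calls kept their direction; the calls named in the text that the block changed are among those described there as lost in several alternatives. Upper-quartile factors put 54.1% of member calls on the side of pool A, against 42.4% with TMM and 35.7% with total counts, which moved the median of all genes by 0.10 and -0.14.

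The class medians of the log2 fold change moved with the scaling. Those of Slc25 and the plasma membrane took both signs over the alternatives, and that of zinc was above 0 in each. With total counts they were -0.25 for Slc25, -0.17 for the plasma membrane and 0.11 for zinc, and with upper-quartile factors -0.0082, 0.064 and 0.35. With 10 counts required in every library the plasma membrane median was 0.016. Leaving out 1 library gave -0.12 to 0.021 for Slc25, -0.052 to 0.041 for the plasma membrane and 0.069 to 0.31 for zinc. Among refits of the genes taken by the naming rule alone, 594 stayed on the same side of the threshold, 39 lost and 3 gained a call, and 0 reversed. Of the 66 member calls, 26 were lost in at least 1 alternative other than the 1.5-fold test, and 38 were tested and kept in each; Slc17a5 and Slc39a11 lost no call but were not tested with 10 counts required in every library. Among members with a mean of 10 to 30 counts, 13.2% passed.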
